A study of Homo sapiens with 12 samples.

Results

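The IFIT and IFITM genes are 2 families of antiviral genes, and the 7 genes described here were chosen by name: IFIT1, IFIT2, IFIT3 and IFIT5 of the first family and IFITM1, IFITM2 and IFITM3 of the second. They are 7 of the 58735 genes in the count table, and all 7 were among the 16046 genes that passed the filter on low counts. The choice was made with the difference between control and OE-MMP28 TAMs already known, so every level or fold change against control below is a description, and no p is given for it. Tests are given only for comparisons among the groups exposed to OE-MMP28 cells, which the choice of genes did not use, and for genes outside the 7. The lists of interferon pathway genes were also written with earlier results known, so their p-values against control are no independent evidence.

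RNA was sequenced from TAMs, here THP-1 cells (a human monocytic leukaemia line) turned into macrophage-like cells with PMA and then kept across a porous membrane from AsPC-1 cells, a human pancreatic cancer line. All 12 libraries share that treatment and that coculture. In the control group the AsPC-1 cells had received an empty lentivirus. In the OE-MMP28 group they had received a lentivirus for the metalloproteinase MMP28 and were selected with puromycin as a stable line, a step the methods do not spell out separately for the control. The anti-IL-8 and anti-VEGFA groups had the same OE-MMP28 coculture plus a neutralizing antibody against IL-8 or VEGFA. No group with an irrelevant (isotype) antibody is among the 4. Each group held 3 libraries, and the labels do not say whether these came from separate cultures, so p-values measure only the spread between these libraries. The MMP28 transcript had 0 counts in all 12 libraries, which hold RNA of the TAMs and not of the AsPC-1 cells, so this gene cannot check the overexpression.

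IFIT proteins are cytoplasmic and are known for binding RNA that carries viral features at its 5′ end and for keeping such RNA from being translated. IFITM proteins sit in the plasma membrane and in endosomes, where they hinder the fusion of viral with cellular membranes. Both families are classical interferon-stimulated genes: type I interferon acts through its receptor and the kinases JAK1 and TYK2 on the transcription factor complex ISGF3, which binds a promoter element called ISRE, and macrophages switch these genes on readily.

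The table names no genome build, but all its gene IDs, and the start and end of 58724 of 58735 genes, are those of GENCODE 29, an annotation of GRCh38. In these coordinates the 4 IFIT genes lie on the plus strand of chromosome 10 within 137 kb. IFIT2 spans chr10:89283694-89309276, IFIT3 chr10:89327894-89340971, IFIT1 chr10:89392546-89406486 and IFIT5 chr10:89414586-89421001. The 3 IFITM genes lie on chromosome 11 within 19.9 kb, with IFITM2 at chr11:307631-315272 and IFITM1 at chr11:313506-315272 on the plus strand and IFITM3 at chr11:319669-327537 on the minus strand. All 7 are annotated as protein-coding. By that annotation, whose exon lengths for the 7 equal those in the table, IFITM1 and IFITM2 share 351 exonic bases on the same strand, 32.5% of IFITM1 and 22.7% of IFITM2. IFITM3 shares 287 exonic bases with the antisense gene AC136475.5, and IFIT2 shares 356 with AL353751.1 and 65 with the opposite-strand gene LIPA. Reads from those stretches and from the near-identical coding parts of the IFITM genes cannot be assigned with certainty, so the separate levels of IFITM1, IFITM2 and IFITM3 are less sure than those of IFIT1, IFIT3 and IFIT5, which share no exonic base with another gene.

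The promoters are shown because the 7 genes were low together and the ISRE is the element both families are known for. Promoter windows of 300 bases (250 before to 50 after the start) came from RefSeq on GRCh38.p14, in which 5 of the 7 genes had an entry. The ISRE core was searched as GAAANNGAAA on both strands, where it reads TTTCNNTTTC on the other strand. Of all 35116 windows, 3.57% held the core and 0.259% held it at least 2 times. Every window of IFIT1, IFIT3, IFIT5, IFITM1 and IFITM3 held it at least 2 times, with no overlap between matches. The lines give the 170 bases before to the 20 bases after the start, 5′ to 3′ on the strand of the gene, with the matches in capitals.
IFIT1, chr10:89392453-89392642, plus strand: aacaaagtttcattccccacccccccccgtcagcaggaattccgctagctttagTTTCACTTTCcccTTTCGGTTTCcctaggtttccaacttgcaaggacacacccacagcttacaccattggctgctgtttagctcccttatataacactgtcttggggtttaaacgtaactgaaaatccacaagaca
IFIT3, chr10:89327827-89328016, plus strand: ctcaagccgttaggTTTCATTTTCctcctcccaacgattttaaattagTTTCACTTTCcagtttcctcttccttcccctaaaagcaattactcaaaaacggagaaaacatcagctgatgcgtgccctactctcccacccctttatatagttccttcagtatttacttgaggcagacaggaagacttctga
IFIT3, second start, chr10:89332359-89332548, plus strand: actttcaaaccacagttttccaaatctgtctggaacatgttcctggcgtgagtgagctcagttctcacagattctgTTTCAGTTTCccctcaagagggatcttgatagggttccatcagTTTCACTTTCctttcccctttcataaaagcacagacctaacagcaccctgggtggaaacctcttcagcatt
IFIT5, chr10:89414398-89414587, plus strand: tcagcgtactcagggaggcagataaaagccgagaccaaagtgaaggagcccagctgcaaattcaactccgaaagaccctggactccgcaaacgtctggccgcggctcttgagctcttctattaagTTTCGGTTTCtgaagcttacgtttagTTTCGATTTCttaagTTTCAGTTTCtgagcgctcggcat
IFITM1, chr11:313870-314059, plus strand: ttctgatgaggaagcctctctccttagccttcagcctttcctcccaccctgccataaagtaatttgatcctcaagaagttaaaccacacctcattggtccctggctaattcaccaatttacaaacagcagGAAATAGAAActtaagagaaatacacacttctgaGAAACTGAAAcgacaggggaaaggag
IFITM3, chr11:320841-321030, minus strand: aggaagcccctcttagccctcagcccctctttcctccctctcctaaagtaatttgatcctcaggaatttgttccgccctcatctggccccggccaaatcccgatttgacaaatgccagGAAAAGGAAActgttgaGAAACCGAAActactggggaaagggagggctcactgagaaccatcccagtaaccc

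The families differ in these windows in how the core is turned. In the IFIT windows every match reads TTTCNNTTTC on the strand of the gene, and in the IFITM windows every match reads GAAANNGAAA. Counted from the start, with negative positions before it, the matches begin at -116 and -103 in IFIT1, and in IFIT3 at -156 and -122 of the first start and at -94 and -51 of the second. IFIT5 has 3 matches, beginning at -45, -19 and -4, so that the last one runs across the start. In IFITM1 they begin at -40 and -6 and in IFITM3 at -52 and -35. The GAS element, searched as TTCNNNGAA, occurs in 7.66% of all windows and once among these, in IFITM1, where it overlaps the second ISRE match. The window of IFIT1B, the paralogue between IFIT3 and IFIT1, and that of IFITM5 hold no ISRE core. A match to these letters is a description of the sequence and not a measured binding site.

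Library totals ran from 15852346 to 18701195 counts, at which 3 counts correspond to 0.160 to 0.195 CPM, and mitochondrial genes took 6.92% to 17.8%. OE-MMP28 replicate 3 stood apart from the other OE-MMP28 libraries on the first principal component (30.6% of the variance), at 22.2 against -7.79 and -26.9. Macrophage markers summed to 2001 to 2269 CPM in control, 2148 to 3471 in OE-MMP28, 2868 to 3568 under anti-IL-8 and 2764 to 2926 under anti-VEGFA. Of the 9 macrophage markers 8 passed the filter, and CD68 had only 0 to 5 counts per library. Of the 8 epithelial markers 2 passed it, and the counts of all 8 summed to 78 to 91 in control, 42 to 51 in OE-MMP28, 53 to 75 under anti-IL-8 and 68 to 77 under anti-VEGFA, and EPCAM had 0 counts in every library. Lymphocyte markers summed to at most 109 counts and fibroblast markers to at most 60. For comparison, the scarcest of the 7 in control, IFITM2, had 851 to 1007 counts, while IFITM1 outside control had 54 to 105. Of the 8 macrophage markers tested, 1 was called in OE-MMP28 against control, CD14, at 752 ± 89.6 CPM in control and 1310 ± 425 in OE-MMP28 (log2 fold change 0.80, edgeR adjusted p 0.0272), and the other 7 lay between -0.48 (AIF1) and 0.23 (FCER1G). Of the epithelial markers MUC1 was lower (-1.01, edgeR adjusted p 0.0341). The part of such shifts in the results was not tested. In bulk RNA a smaller number of expressing cells and less RNA per cell cannot be told apart.

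The 7 transcripts were abundant in control TAMs and low in all 3 groups exposed to OE-MMP28 cells. Values are CPM, read counts relative to the library total after TMM scaling, which evens out differences in composition. IFIT1, which binds RNA lacking the methylated cap of host messengers, stood at 348, 442 and 295 CPM in the 3 control libraries and at 22.3, 14.2 and 12.2 in OE-MMP28. Under anti-IL-8 it stood at 8.49, 11.1 and 8.43 CPM, and under anti-VEGFA at 22.2, 23.8 and 14.8. All 3 control libraries lay above the other 9, and the mean went from 361 ± 74.5 CPM in control to 16.2 ± 5.32 in OE-MMP28, which is 4.49% (SD, n = 3). The log2 fold change from control was -4.47 (SE 0.24) for OE-MMP28, -5.27 (SE 0.25) for anti-IL-8 and -4.16 (SE 0.23) for anti-VEGFA.

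IFIT2, which forms complexes with IFIT1 and IFIT3, had 166, 227 and 154 CPM in control, 11.0, 7.60 and 5.93 in OE-MMP28, 5.21, 7.06 and 5.64 under anti-IL-8 and 11.7, 13.4 and 6.29 under anti-VEGFA. It followed IFIT1 closely, with a log2 fold change of -4.47 (SE 0.26) for OE-MMP28 against control. IFIT3, which stabilizes IFIT1 and was the most abundant of the 7 in control, had 522, 610 and 413 CPM in control, 55.2, 37.7 and 28.3 in OE-MMP28, 27.5, 35.3 and 26.5 under anti-IL-8 and 58.5, 45.6 and 35.3 under anti-VEGFA. Its OE-MMP28 mean was 7.84% of control, a log2 fold change of -3.67 (SE 0.24). IFIT5, the member that binds RNA as a monomer, kept the largest part of its level within its family. It had 65.6, 79.1 and 57.6 CPM in control, 15.8, 12.1 and 10.5 in OE-MMP28, 8.56, 11.4 and 6.75 under anti-IL-8 and 8.97, 12.2 and 8.32 under anti-VEGFA, and its OE-MMP28 mean was 19.0% of control (log2 fold change -2.40, SE 0.20).

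**Figure D1:**
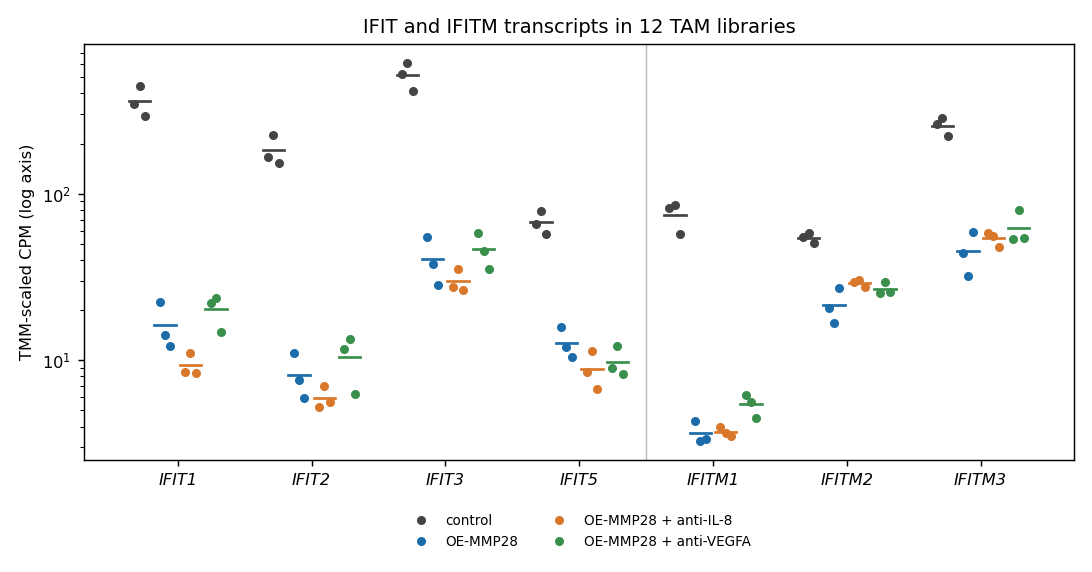
Level of each transcript in each library as TMM-scaled CPM on a log axis, with points for the 3 libraries of a group in replicate order and a bar for their mean. For all 7 transcripts every control library lies above every other library. The OE-MMP28 mean is 4.49% of control for IFIT1 and 39.4% for IFITM2.

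The IFITM genes were less alike. IFITM1, the member found mostly at the plasma membrane, had 82.1, 85.5 and 57.6 CPM in control, 4.34, 3.27 and 3.37 in OE-MMP28, 3.99, 3.68 and 3.50 under anti-IL-8 and 6.24, 5.65 and 4.48 under anti-VEGFA. Its log2 fold change of -4.35 (SE 0.19) for OE-MMP28 was close to those of IFIT1 and IFIT2 and left 4.88% of the control mean. IFITM3, the endosomal member best known for restricting influenza virus, had 261, 285 and 222 CPM in control, 44.4, 32.0 and 58.9 in OE-MMP28, 58.2, 56.1 and 48.0 under anti-IL-8 and 53.3, 80.4 and 54.0 under anti-VEGFA. It kept 17.6% of control in OE-MMP28 (log2 fold change -2.51, SE 0.20). IFITM2, also endosomal, differed least from control, with 55.0, 58.2 and 50.4 CPM there, 20.5, 16.8 and 27.1 in OE-MMP28, 29.6, 30.3 and 27.6 under anti-IL-8 and 25.5, 29.6 and 25.8 under anti-VEGFA. Its mean was 39.4% of control in OE-MMP28. The corresponding values were 53.5% for the anti-IL-8 group and 49.4% for the anti-VEGFA group. Its log2 fold change from control was -1.35 (SE 0.15), -0.90 (SE 0.15) and -1.02 (SE 0.15) in these groups. In OE-MMP28, replicate 3 was the highest library for IFITM2 and IFITM3 and the lowest for all 4 IFIT genes.

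Against all genes, the median log2 fold change of the 7 was -3.67 for OE-MMP28 (0.02 over all genes tested), -4.11 for anti-IL-8 (-0.02) and -3.47 for anti-VEGFA (0.0014). As background, 2.64%, 10.9% and 5.37% of all genes were called lower at an adjusted p under 0.05 in these comparisons, and that all 7 are among them follows from how they were chosen. Every library also lay below every control library for all 7, which held for 11.6%, 24.4% and 17.4% of genes. Because the genes were chosen on this contrast and the 3 comparisons share the control libraries, nothing is read from these counts. The 4 IFIT genes had a median of -4.07 for OE-MMP28 and the 3 IFITM genes of -2.51, but the ranges of the families overlapped, from -4.47 for IFIT1 to -2.40 for IFIT5 and from -4.35 for IFITM1 to -1.35 for IFITM2.

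**Figure D2:**
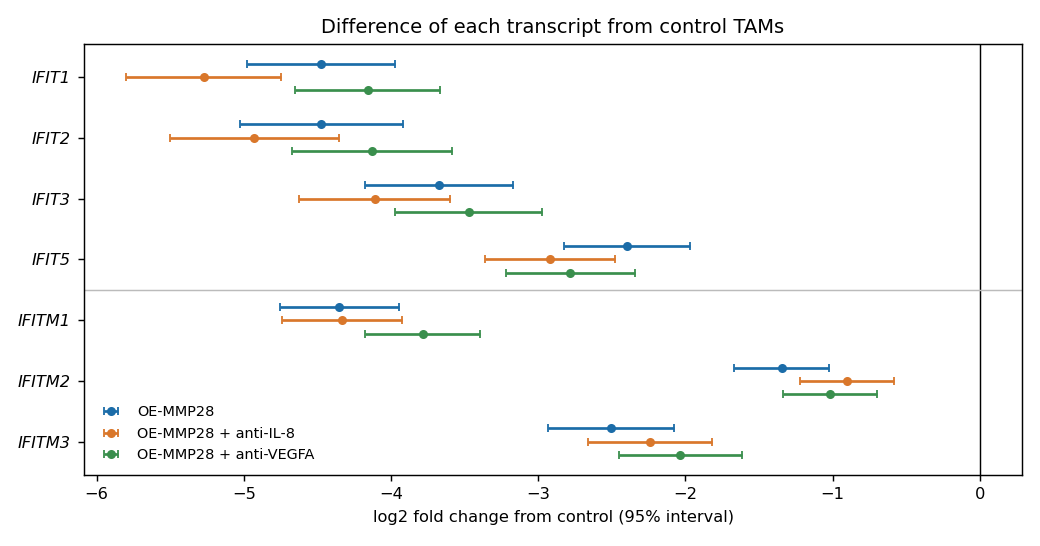
log2 fold change of each transcript from control with its 95% interval, for the 3 OE-MMP28 groups, from the edgeR fit of all 12 libraries. The values run from -5.27 (IFIT1 under anti-IL-8) to -0.90 (IFITM2 under anti-IL-8). The genes were chosen on this contrast, so the intervals describe the spread and are no test.

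Levels of different genes were compared per kilobase of exon. In control the order was IFIT3 (195 ± 37.4 CPM per kb), IFITM3 (190 ± 23.6), IFIT1 (78.4 ± 16.2), IFITM1 (69.5 ± 14.1), IFIT2 (44.4 ± 9.52), IFITM2 (35.3 ± 2.53) and IFIT5 (16.8 ± 2.71). The libraries of IFIT3 and IFITM3 overlapped, as did those of IFIT1 and IFITM1, of IFITM1 and IFIT2, and of IFIT2 and IFITM2. In OE-MMP28 the order was IFITM3 (33.4 ± 9.98), IFIT3 (15.3 ± 5.18), IFITM2 (13.9 ± 3.38), IFIT1 (3.52 ± 1.15), IFITM1 (3.39 ± 0.547), IFIT5 (3.19 ± 0.675) and IFIT2 (1.99 ± 0.629). There IFIT3 overlapped with IFITM2, IFIT1, IFITM1 and IFIT5 overlapped with each other, and IFIT2 overlapped with IFIT1 and IFIT5. The most abundant 3 were the endosomal IFITM genes and IFIT3. In the anti-IL-8 group the order was IFITM3 (40.1), IFITM2 (18.9), IFIT3 (11.3), IFITM1 (3.45), IFIT5 (2.22), IFIT1 (2.02) and IFIT2 (1.46), in which IFIT5 overlapped with IFIT1 and, by its lowest library, with IFIT2. In the anti-VEGFA group it was IFITM3 (46.4), IFIT3 (17.6), IFITM2 (17.5), IFITM1 (5.05), IFIT1 (4.39), IFIT2 (2.55) and IFIT5 (2.45). Here IFIT3 overlapped with IFITM2, IFITM1 with IFIT1, IFIT1 with IFIT2 and IFIT2 with IFIT5.

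The balance between the families shifted with the groups. The IFIT genes made up 52.0%, 55.0% and 52.1% of the summed per-kilobase level of the 7 in the control libraries. In OE-MMP28 they made up 39.2%, 37.1% and 21.3%, under anti-IL-8 19.2%, 23.9% and 20.8%, and under anti-VEGFA 34.1%, 25.5% and 24.9%. Control lay above all other groups, the anti-IL-8 libraries lay below replicates 1 and 2 of OE-MMP28 and below all anti-VEGFA libraries, and OE-MMP28 replicate 3 lay among the anti-IL-8 values. On a log2 scale, the mean of the IFIT genes minus the mean of the IFITM genes was 1.10 ± 0.12 in control, 0.06 ± 0.52 in OE-MMP28, -0.73 ± 0.23 under anti-IL-8 and -0.27 ± 0.22 under anti-VEGFA (SD, n = 3). No p is given for these sums, because the genes were chosen with their values known. The families also differ in base composition, described below, and its part in this balance was not tested.

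**Figure D3:**
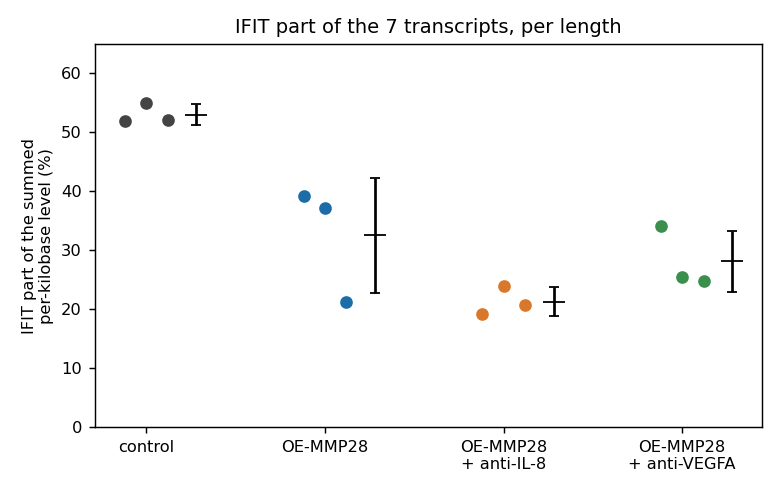
IFIT part, in percent, of the summed CPM per kb of the 7 transcripts in each library, with the group mean ± SD (n = 3) beside the points. Control sits at 52.0% to 55.0%, OE-MMP28 spreads from 21.3% to 39.2%, and the anti-IL-8 libraries sit between 19.2% and 23.9%.

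Whether neutralizing IL-8 or VEGFA moved the 7 transcripts was asked by comparing the antibody groups with OE-MMP28 and with each other. With either antibody all 7 stayed below every control library, and none of the 7 differed between these groups at an adjusted p under 0.05 by the edgeR quasi-likelihood test. For anti-IL-8 against OE-MMP28, 0 of 7 were called (0% of all genes tested), for anti-VEGFA against OE-MMP28 0 of 7 (0.343%), and for anti-VEGFA against anti-IL-8 0 of 7 (0.199%). By limma voom the counts were also 0 of 7 each, with 0%, 0.436% and 0.193% of all genes called. DESeq2 called 2 of 7 (13.2%), 0 of 7 (2.67%) and 1 of 7 (1.53%). At an unadjusted p under 0.05, edgeR passed 3 of 7 (29.3% of all genes), 3 of 7 (18.8%) and 4 of 7 (15%). The median log2 fold change of the 7 was -0.44, 0.33 and 0.55 in these comparisons, and that of all genes -0.02, -0.0015 and 0.02.

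The difference nearest to the threshold was that of IFIT1 between the antibody groups, where all 3 anti-VEGFA libraries (14.8 to 23.8 CPM) lay above all 3 anti-IL-8 libraries (8.43 to 11.1 CPM). The log2 fold change was 1.11 (SE 0.23, 95% interval 0.63 to 1.59), with an edgeR adjusted p of 0.0534. DESeq2 gave IFIT1 an adjusted p of 0.000766 here, and over the 25 alternatives tried the adjusted p ran from 5.59e-08 to 0.338, passing 0.05 in 10 of them. IFIT2 and IFIT3 had higher anti-VEGFA means by 0.80 (SE 0.26, edgeR adjusted p 0.186) and 0.64 (SE 0.22, adjusted p 0.208), with overlapping libraries, while IFIT5 differed by 0.14 (SE 0.21, 95% interval -0.31 to 0.58). IFITM1 was 0.55 higher (SE 0.20, edgeR adjusted p 0.228) with no overlap between libraries. IFITM2 and IFITM3 differed by -0.11 (95% interval -0.44 to 0.21) and 0.21 (95% interval -0.20 to 0.62). In this comparison the libraries of 2 of the 7 did not overlap, against 20.9% of all genes.

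For anti-IL-8 against OE-MMP28 the IFIT means lay lower and the IFITM means higher, with no gene past the threshold. The log2 fold change of IFIT1 was -0.80 (SE 0.23, edgeR adjusted p 0.0632), and those of IFIT2, IFIT3 and IFIT5 were -0.46, -0.44 and -0.52 (adjusted p 0.259, 0.195 and 0.113). IFITM2 was higher by 0.44 (SE 0.15, adjusted p 0.0819) and IFITM3 by 0.26 (SE 0.20, adjusted p 0.375), and IFITM1 differed by 0.02 (SE 0.21, 95% interval -0.42 to 0.46). The libraries did not overlap for IFIT1 and IFITM2, 2 of 7, against 29% of all genes. OE-MMP28 replicate 3 bore on this comparison: without it 4 of 7 were called by edgeR, IFIT1 (-0.95, adjusted p 0.00898), IFIT3 (-0.63, 0.0343), IFIT5 (-0.63, 0.0401) and IFITM2 (0.66, 0.00651), beside 25% of all genes. By DESeq2 with all libraries the 2 called were IFIT1 (adjusted p 0.0177) and IFITM2 (adjusted p 0.0419). Over the 25 alternatives the adjusted p ran from 0.00114 to 0.514 for IFIT1 and from 0.00651 to 0.512 for IFITM2.

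For anti-VEGFA against OE-MMP28, 6 of the 7 had higher means, beside 49.8% of all genes with a log2 fold change above 0. Several of the 7 varied together within groups, as given below, so the 6 are not separate observations. The largest differences were those of IFITM1 and IFITM3. IFITM1 was higher by 0.57 (SE 0.20, edgeR adjusted p 0.156), with the lowest anti-VEGFA library at 4.48 CPM above the highest OE-MMP28 library at 4.34. IFITM3 was higher by 0.47 (SE 0.20, adjusted p 0.208) and IFITM2 by 0.33 (SE 0.15, adjusted p 0.258). IFIT1, IFIT2 and IFIT3 differed by 0.32, 0.34 and 0.20 (adjusted p 0.448, 0.479 and 0.653) and IFIT5 by -0.39 (adjusted p 0.322). IFITM1 was the 1 gene of 7 with no overlap, against 18.1% of all genes. Without OE-MMP28 replicate 3, IFITM2 (0.53, edgeR adjusted p 0.0335) and IFITM3 (0.72, 0.0329) were called higher, 2 of 7, against 8.48% of all genes.

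**Figure D4:**
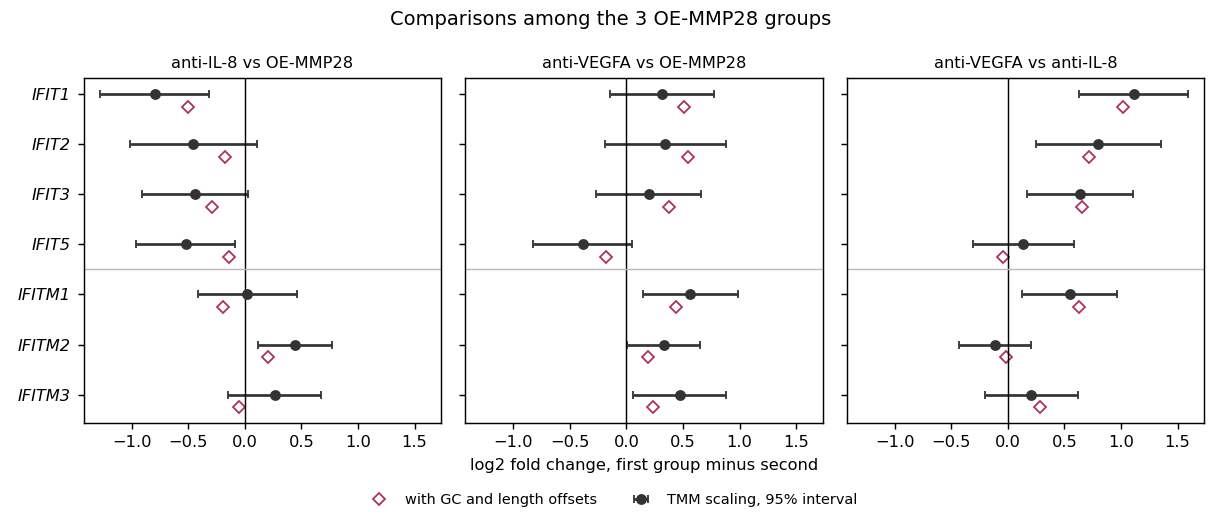
log2 fold change of each transcript in the 3 comparisons among groups exposed to OE-MMP28 cells, as TMM-scaled estimates with 95% intervals (filled circles) and after offsets for GC content and gene length (open diamonds). In the anti-IL-8 against OE-MMP28 panel the diamonds lie nearer to 0 than the circles for the 4 IFIT genes, IFITM2 and IFITM3, and between the antibody groups IFIT1 is at 1.11 and 1.02.

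The families also differ in base composition, whose part in the comparisons was examined only through the values given here. The IFIT transcripts have a GC content of 37.4% to 44.2% and the IFITM transcripts of 55.0% to 59.8%. When all genes were ranked by GC content and cut into 10 groups of 1604, the median log2 fold change for anti-IL-8 against OE-MMP28 rose from -0.39 in the group lowest in GC to 0.47 in the highest. The groups of IFIT1, IFIT2, IFIT3 and IFIT5 had medians of -0.37, -0.30, -0.20 and -0.39, that of IFITM1 and IFITM2 0.27 and that of IFITM3 0.345. IFITM1 did not follow its group, at 0.02. When GC content and transcript length were fitted as offsets, an alternative added after these values were seen, IFIT1 was at -0.50 (edgeR adjusted p 0.514), IFIT2 at -0.18, IFIT3 at -0.29 and IFIT5 at -0.14, and IFITM1 was at -0.19, IFITM2 at 0.21 and IFITM3 at -0.05. The IFIT1 difference between the antibody groups was 1.02 with the offsets (edgeR adjusted p 0.0421). For anti-VEGFA against OE-MMP28 the medians were -0.17 in the lowest group and 0.415 in the highest. The group of IFITM1 and IFITM2 was at 0.17 and that of IFITM3 at 0.27. Against control the lowest and highest groups were at -0.335 and 0.441 for anti-IL-8, and at -0.126 and 0.384 for anti-VEGFA. For OE-MMP28 against control the 10 group medians lay only between -0.01 and 0.06, and the median of the 7 with the offsets was -3.71.

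Among libraries of the same group the IFIT genes varied together. After subtraction of the group means over the 12 libraries, Pearson r between IFIT genes was 0.72 to 0.963, highest for IFIT1 with IFIT2. IFITM2 and IFITM3 also varied together (r = 0.943). They share no annotated exonic base but much coding sequence, and the part of misassigned reads in this was not tested. For IFITM1 r was 0.223 with IFITM2 and 0.349 with IFITM3, but 0.788 with IFIT1, 0.713 with IFIT2, 0.801 with IFIT3 and 0.574 with IFIT5. Spearman's rho gave the same grouping, at 0.86 for IFITM1 with IFIT1 and 0.357 for IFITM1 with IFITM2. These values describe 12 libraries that share groups, depth and base-composition shifts, and they carry no p.

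**Figure D5:**
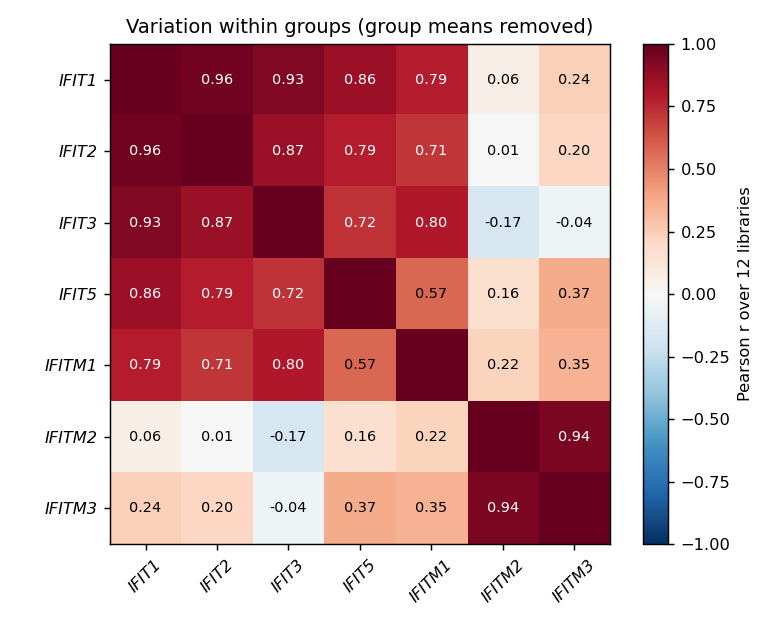
Pearson r between transcripts over the 12 libraries after subtraction of each group's mean log2 CPM. The 4 IFIT genes and IFITM1 form a block at 0.57 to 0.96, IFITM2 and IFITM3 pair at 0.94, and IFITM2 lies between -0.17 and 0.22 with the IFIT genes and IFITM1.

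Among 13067 protein-coding genes outside the 7, the profiles most like the IFIT mean over the 12 libraries were those of DDX58 (r = 0.998), the gene of the RNA sensor RIG-I, PLSCR1 (r = 0.996), a phospholipid scramblase, and GBP1 (r = 0.995), a GTPase induced by interferon. These r, like those over the 12 libraries for the IFITM mean, mostly reflect the gap between control and the other groups, on which the 7 were chosen. With group means removed the most alike were IFI44L (r = 0.949), an interferon-stimulated gene, DDX58 (r = 0.944) and TRUB1 (r = 0.925), a pseudouridine synthase. The profiles most like the IFITM mean were those of OASL (r = 0.996), ISG15 (r = 0.992) and ISG20 (r = 0.992), all interferon-stimulated. With group means removed they were ISG15 (r = 0.963), UFSP1 (r = 0.959), a protease of the UFM1 modifier, and FBXO6 (r = 0.957), an F-box protein that recognizes glycoproteins. The IFITM mean joins unlike profiles, because IFITM2 and IFITM3 paired at 0.943 while IFITM1 was at 0.223 and 0.349 with them.

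The other genes of the interferon pathway were counted by lists that were also written with earlier results known. Their p-values against control therefore describe the size of a difference against its spread and are no independent evidence. Ligands were nearly absent: none of the 22 interferon genes listed passed the filter, and their counts summed to 7 to 14 per library in control, 1 to 7 in OE-MMP28, 1 under anti-IL-8 and 0 to 3 under anti-VEGFA. IFNB1 had 5 to 13 counts in control, 0 to 6 in OE-MMP28, 0 to 1 under anti-IL-8 and 0 to 2 under anti-VEGFA. Of 8 receptor and kinase genes tested, 1 fell in OE-MMP28 against control, JAK2 (log2 fold change -0.60, SE 0.16, edgeR adjusted p 0.0484), where 2.64% of all genes fell and 0.523% rose. The receptor genes IFNAR1 and IFNAR2 were at 0.04 (adjusted p 0.933) and 0.01 (adjusted p 0.99).

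Among the genes for ISGF3 and interferon regulatory factors, STAT2, IRF7, IRF1 and IRF9 fell in OE-MMP28 against control. STAT2 went from 293 ± 25.3 to 110 ± 16.5 CPM (log2 fold change -1.41, edgeR adjusted p 3.6e-06) and IRF7 from 206 ± 19.6 to 65.5 ± 17.9 CPM (-1.65, adjusted p 2.19e-05). IRF1 was at -0.80 (adjusted p 0.00446) and IRF9 at -0.90 (adjusted p 0.0181). IRF3, which acts before interferon is made, was at 0.10 (adjusted p 0.856). Of 8 negative regulators 1 fell, USP18, where 2.64% of all genes fell. This protease, which removes ISG15 and damps the receptor, went from 110 ± 16.3 to 14.8 ± 4.67 CPM (-2.89, edgeR adjusted p 1.69e-08).

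Other antiviral factors at virus entry or in membranes fell in 5 of 9, led by MX2, a restriction factor at the nuclear envelope (-3.42, edgeR adjusted p 3.8e-09), LY6E, a membrane-anchored factor against coronaviruses (-2.34, adjusted p 2.04e-08), and TRIM5 (-2.23, adjusted p 1.6e-07), which binds retroviral capsids. CH25H, a cholesterol hydroxylase beside the IFIT cluster, was at -0.02 (adjusted p 0.984). Factors acting on RNA or translation fell in 8 of 11, among them OASL (-4.32, edgeR adjusted p 1.26e-09), the exonuclease gene ISG20 (-3.35, adjusted p 8.8e-09) and EIF2AK2, which encodes the translation kinase PKR (-2.02, adjusted p 2.21e-07). The median of that list was -1.43. The -3.67 of the 7 IFIT and IFITM genes is no measure to set beside it, because they were chosen on this contrast. Against control 11 of these 11 fell under anti-IL-8, where 10.9% of all genes were called lower, and 9 of 11 under anti-VEGFA, where 5.37% were. For OE-MMP28, to which the 5 of 9 and the 8 of 11 belong, the share was 2.64%. Among the OE-MMP28 groups edgeR called 0 of the 45 genes of these 5 lists in each comparison. At an unadjusted p under 0.05 there were 21 for anti-IL-8 against OE-MMP28 (29.3% of all genes), 12 for anti-VEGFA against OE-MMP28 (18.8%) and 10 between the antibody groups (15%). DESeq2 called 10 (13.2% of all genes), 1 (2.67%) and 1 (1.53%), and limma voom 0 each.

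Of the other genes whose symbols begin with IFIT or IFITM, only IFITM10 and the pseudogene IFIT1P1 passed the filter. IFITM10, which is not among the genes within 250 kb of the chromosome 11 cluster, was higher where the 7 were lower. It had 5.19, 5.60 and 5.39 CPM in control, 11.9, 7.19 and 13.3 in OE-MMP28, 16.8, 13.9 and 14.3 under anti-IL-8 and 20.8, 17.1 and 18.8 under anti-VEGFA. Every library exposed to OE-MMP28 cells lay above every control library, and the log2 fold change was 1.00 (SE 0.20, edgeR adjusted p 0.00569), 1.47 (SE 0.20, adjusted p 8.14e-05) and 1.81 (SE 0.20, adjusted p 7.03e-06). Genes called higher made up 0.523%, 9.77% and 5.6% of all genes in these comparisons, which share the control libraries. For anti-VEGFA against OE-MMP28 IFITM10 differed by 0.81 (SE 0.19, edgeR adjusted p 0.0633). IFIT1B had 0 to 7 counts per library and IFITM5 had 0 in all 12, which allows up to 3 counts in each.

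Of the genes beside the clusters, 1 was called in OE-MMP28 against control, where 3.16% of all genes were called in either direction. Within 250 kb of the IFIT cluster 3 other genes were tested, LIPA, CH25H and PANK1, and none was called, with a median log2 fold change of -0.02. LIPA, a lysosomal lipase gene whose annotated span runs over IFIT2, IFIT3 and IFIT1 on the opposite strand, was at -0.24 (SE 0.16, edgeR adjusted p 0.563). For anti-VEGFA against control LIPA was called lower (-0.54, SE 0.16, edgeR adjusted p 0.043), beside 5.37% of all genes. Within 250 kb of the IFITM cluster 16 genes were tested, of which 1, PGGHG, was called lower (-1.46, SE 0.38, edgeR adjusted p 0.0398), and the median was 0.06. AC136475.1, an antisense gene inside the span of the cluster, was at -2.00 (SE 0.57, edgeR adjusted p 0.0663). Against control 6 of the 16 were called higher under anti-IL-8 (9.77% of all genes) and 3 under anti-VEGFA (5.6%). In the comparison of anti-IL-8 with OE-MMP28 the median of these 16 genes was 0.43, beside 0.02, 0.44 and 0.26 for IFITM1, IFITM2 and IFITM3. For anti-VEGFA against OE-MMP28 it was 0.44, beside 0.57, 0.33 and 0.47. These neighbours have a median GC content of 62.0%, and edgeR called 0 of the 16 in either comparison. At an unadjusted p under 0.05 there were 7 (29.3% of all genes) and 8 (18.8%), DESeq2 called 5 (13.2%) and 0 (2.67%), and limma voom 0 and 0.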

How the data were processed

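RNA of 12 libraries was analysed in 4 groups of 3, assigned from the labels. The authors counted reads per gene (the labels name HISAT2 2.0.5 and featureCounts 1.5.0-p3, and the genome build and use of strand are not given in the sources used here). The deposited counts, the FPKM values by the authors and the deposited gene length in bases were used as given. All 58735 gene IDs match GENCODE 29, and 58724 have the same start and end. The deposited log2 fold changes and p-values of the authors' own comparisons were not used.

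Counts were analysed in R 4.3.3 with edgeR 4.0.16: filterByExpr left 16046 genes, TMM scaled the libraries, and 1 quasi-likelihood fit of the 4 groups (common dispersion 0.0231) gave all comparisons, with Benjamini-Hochberg adjustment over all genes and a threshold of 0.05. Log2 CPM used a prior count of 2. The members and gene lists, and the motifs, were chosen with earlier results of these data known. The text names the 7 members, other genes with these symbol stems, tested genes within 250 kb, up to 4 genes a list by smallest p, and the 3 genes most alike to each family. Other genes were singled out after their values were seen, and some results of the lists are not reported here. Alternatives used DESeq2 1.42.0, limma 3.58.1 (voom, and FPKM with pseudocounts), other scalings and filters, fits of 2 groups, a replicate block, and omission of single libraries. GC and length offsets (loess) and a mitochondrial covariate were added after values were seen. The fit was tested on simulated data. The floor of 3 counts covers counting error only. Figures were drawn in Python 3.11.15 with matplotlib 3.10.9.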

Additional observations from a re-analysis of the deposited data

How the results depend on the processing

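Against control, the direction of all 7 transcripts held under each of the 25 alternatives, and the median log2 fold change of the 7 ran from -3.96 to -3.46 for OE-MMP28, from -4.25 to -3.95 for anti-IL-8 and from -3.67 to -3.30 for anti-VEGFA. Among the groups exposed to OE-MMP28 cells the count of the 7 called at an adjusted p under 0.05, 0 in each comparison, changed as follows. For anti-IL-8 against OE-MMP28 it was 2 with DESeq2, beside 2122 of all 16046 genes tested. It was 1 without a filter on low counts (1438 of 34435) and 1 with the mitochondrial share as a covariate (1739 of 16046). For anti-VEGFA against anti-IL-8 it was 1 with DESeq2 (245 of all 16046 genes) and 3 without a filter (277 of 34435). It was 1 with at least 10 counts in every library (57 of 13312) and 1 with protein-coding genes only (60 of 13075). With the GC and length offsets it was 1 (200 of 16046), and 1 with the mitochondrial share as a covariate (176 of 16046). Leaving out 1 library at a time gave 0 to 4 for anti-IL-8 against OE-MMP28, 0 to 2 for anti-VEGFA against OE-MMP28 and 0 to 1 for anti-VEGFA against anti-IL-8. The 4 and the 2 came without OE-MMP28 replicate 3, beside 4125 and 1402 of all 16530 genes. Leaving out anti-VEGFA replicate 2 gave 1 in the first comparison (IFIT1, edgeR adjusted p 0.0477), beside 1166 of 16475. In the last, leaving out OE-MMP28 replicate 1, 2 or 3 gave 1 (IFIT1), beside 31 of 16505, 112 of 16474 and 97 of 16530 genes. The cause was not tested. Counts over all genes moved as well. For anti-IL-8 against OE-MMP28 edgeR called 0 genes, against 2122 with DESeq2, 1438 without a filter, 1739 with the mitochondrial covariate, 795 with the replicate block, 4125 without OE-MMP28 replicate 3, and 1166 when anti-VEGFA replicate 2 was left out. For anti-VEGFA against OE-MMP28 the 55 ran from 1 (a fit of those groups alone) to 1402, and for anti-VEGFA against anti-IL-8 the 32 from 3 to 277.

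Signs turned in the following cases, whose 95% intervals all span 0. For anti-IL-8 against OE-MMP28, IFITM1 (0.02) was at -0.017 with library totals in place of TMM, -0.19 with the GC and length offsets, -0.0024 with the mitochondrial covariate and between -0.055 and 0.17 with a library left out, and IFITM3 was at -0.050 with the GC and length offsets. For anti-VEGFA against OE-MMP28, IFIT3 was between -0.0039 and 0.49 with a library left out. For anti-VEGFA against anti-IL-8, IFIT5 was at -0.040 with the GC and length offsets and between -0.066 and 0.35 with a library left out, and IFITM3 between -0.035 and 0.31.

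Deviations from the group means gave no clear sign that the replicate numbers pair the libraries. They correlated at -0.16 to 0.237 between libraries of the same number, over 0.1 in 4 of 18 pairs. Between different numbers they correlated at -0.323 to 0.336, over 0.1 in 9 of 36. Not every library correlated best with its own number. With 3 libraries a group these values cannot exclude pairing. With the replicate block 1 of the 7, IFIT1, was called for anti-IL-8 against OE-MMP28, beside 795 of all 16046 genes. For anti-VEGFA against OE-MMP28 it was 0 (37 of all genes), and for anti-VEGFA against anti-IL-8 1, again IFIT1 (26 of all genes).

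IFITM1 had 54 to 105 counts outside control, the fewest of the 7, and it shares reads with IFITM2 to an unknown extent.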
